A study of Homo sapiens with 30 samples.

Results

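The genes described here were 9 genes of the cellular defence against oxidants: NQO1, HMOX1, GCLC, GCLM, TXNRD1, SRXN1, AKR1C1, AKR1B10 and SLC7A11. They were taken by name, and all 9 were found among the 60612 genes of the knockout table and the 56303 genes of the overexpression and of the knockdown table. RNA-seq had been run on 5637, an established human bladder carcinoma cell line, in 3 separate experiments with 3 libraries per group, 30 libraries in 10 groups. In the knockout experiment, cells with RBPMS knocked out by CRISPR (KO1 and KO2) were set beside wild-type cells (WT1 and WT2), and each knockout was compared with the wild-type group of the same number. In the overexpression experiment, cells made to express ANKRD10-1 or ANKRD10-2, transcripts of the ankyrin repeat gene ANKRD10, were set beside cells with the vector only (Vector). In the knockdown experiment, cells received an siRNA against ANKRD10-1 (siANKRD10-1), an siRNA against ANKRD10-2 (siANKRD10-2) or the negative control siRNA (siNC). All cells were grown in RPMI medium with fetal bovine serum. The knockout lines were grown from single clones and passaged many times, so each knockout group was 1 clone, and the clone cannot be told apart from the knockout. The study describes ANKRD10-1 overexpression and siANKRD10-2 as done in RBPMS knockout cells, whereas the labels name 5637 cells only and give a single control group in each ANKRD10 experiment. Nothing in the labels states that the 3 libraries of a group came from separate cultures, so p-values measure only the spread between these libraries, which may be technical.

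NRF2, encoded by NFE2L2, is the transcription factor that switches on a programme of antioxidant and detoxifying genes. In resting cells the adaptor KEAP1 holds NRF2 and hands it to a CUL3 ubiquitin ligase for destruction. When electrophiles or oxidants modify KEAP1, NRF2 accumulates, pairs with a small MAF protein and binds antioxidant response elements, short DNA motifs for which the repressor BACH1 competes. Several carcinomas, bladder carcinoma among them, carry a constantly active form of this pathway. The genes form groups by what they make. SLC7A11, GCLC and GCLM supply cystine and build glutathione. TXNRD1 and SRXN1 serve the thioredoxin and peroxiredoxin cycle. NQO1 reduces quinones and HMOX1 degrades haem. AKR1C1 and AKR1B10 reduce carbonyls and steroids.

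The libraries held 44593108 to 69723937 counts in the knockout table, 31736779 to 47493499 in the overexpression table and 28511029 to 32784584 in the knockdown table. RBPMS was at a mean of 14.9 CPM (counts scaled to a common library total, TMM-normalised within each table) in KO1 against 40.4 in WT1 and at 20.3 in KO2 against 43.1 in WT2. It was at 4.5 CPM in ANKRD10-1 against 5.14 CPM in Vector (log2 fold change −0.19, edgeR adjusted p = 0.472). In siANKRD10-2 against siNC its log2 fold change ran from −0.04 to 0.16 with 1 library left out at a time. Whether the cells of ANKRD10-1 and siANKRD10-2 were RBPMS knockouts was not tested. ANKRD10 was at 86.3 CPM in KO1 against 195 CPM in WT1 and at 113 CPM in KO2 against 190 CPM in WT2. The log2 fold changes were −1.18 in KO1 and −0.76 in KO2 (edgeR adjusted p = 6.55e-08 and 3.98e-08). In the overexpression experiment ANKRD10 was at 237 CPM in ANKRD10-1 and 197 CPM in ANKRD10-2 against 149 CPM in Vector. In siANKRD10-1 and siANKRD10-2 it was at 47.7 and 47.5 CPM against 56.5 CPM in siNC. Of the cell type markers, the 10 urothelial and epithelial genes summed to 2940 to 5780 CPM per library, the 6 fibroblast genes to 28.7 to 59.7 CPM, the 4 endothelial genes to 1.36 to 3.4 CPM and the 5 leukocyte genes to 0.191 to 1.36 CPM, with TYROBP at 0 in every library. The fibroblast sum lay at 32.6 to 38.1 CPM in KO1 against 52.6 to 56.3 CPM in WT1, and its part in the KO1 results was not tested. Of these genes, COL1A2 and COL3A1 were at 0 in every KO1 library and COL3A1 in every WT1 library. The epithelial sum lay at 3410 to 3520 CPM in siANKRD10-2, at 4560 to 4900 CPM in siANKRD10-1 and at 5450 to 5780 CPM in siNC. Of the 10 markers 7 were called lower in siANKRD10-2 and 4 in siANKRD10-1, against 18.7% and 5.52% of all genes. In KO1 4 of the 10 were called higher and 2 lower, against 17.9% and 18.2% of all genes. In KO2 4 were called higher and 3 lower, against 19.3% and 19.2%. In the overexpression experiment the sum lay at 2940 to 3130 CPM in Vector, 3290 to 3360 CPM in ANKRD10-1 and 3380 to 3780 CPM in ANKRD10-2. There 4 and 7 of the 10 markers were called higher in ANKRD10-1 and ANKRD10-2, against 3.5% and 10.7% of all genes. The part of these shifts in the results was not tested.

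RefSeq start-site windows of 300 bases (250 before and 50 after the start, GRCh38.p14) were given for 6 of the 9 genes, 7 windows in all. They were searched on both strands for the letters TGACNNNGC, the core of the antioxidant response element. The letters stood in 3 of these windows, of GCLM and of TXNRD1, and in 13.3% of all 35116 windows of that length. GCLM was called in 4 and TXNRD1 in 5 of the 6 comparisons with a control group. Of the genes without a match, NQO1 was called in 4, GCLC in 3, SRXN1 in 2 and AKR1C1 in 1. SLC7A11, for which no window was given, was called in 4. The stretches below are shown because their windows held a match. They are written in gene orientation with the matching letters in capitals, and 1 further match at the upstream TXNRD1 start is not shown. The GCLM stretch lies at chr1:93909445-93909474 on the minus strand, 44 to 15 bases before the RefSeq start, with the match on the opposite strand. The TXNRD1 stretches lie at chr12:104215670-104215699, 109 to 80 bases before an upstream start and with the match on the gene's own strand, and at chr12:104286920-104286949, 112 to 83 bases before a downstream start and with the match on the opposite strand.
GCLM: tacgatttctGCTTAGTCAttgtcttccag
TXNRD1, upstream start: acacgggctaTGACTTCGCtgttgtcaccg
TXNRD1, downstream start: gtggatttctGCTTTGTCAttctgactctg
The letters were not in the windows of NQO1, GCLC, SRXN1 and AKR1C1. Sequence more than 250 bases before the start was not searched, so these genes may hold the element elsewhere. A match is a description of the letters and not a measured binding site.

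In the control cells NQO1, TXNRD1 and SRXN1 were the most abundant of these transcripts. Per length, as RPKM (CPM divided by the gene's length in kilobases), WT1 had means of 40.9 for NQO1, 31.2 for TXNRD1 and 20.9 for SRXN1, then 7.28 for GCLM, 6.49 for GCLC and 6.2 for SLC7A11. HMOX1 at 2.16 RPKM, AKR1B10 at 1.12 RPKM and AKR1C1 at 0.218 RPKM closed the order. GCLC and SLC7A11 did not differ beyond their spread in WT1. In Vector the order opened with TXNRD1 at 30.7, SRXN1 at 10.6 and NQO1 at 8.78 RPKM, and in siNC with TXNRD1 at 25.4, NQO1 at 12.4 and SRXN1 at 9.37 RPKM. The neighbours SLC7A11 at 1.54 and GCLM at 1.46 RPKM did not differ beyond their spread in siNC. The 3 tables were made and normalised separately, so levels set across them carry no test. On the CPM scale, TXNRD1 was at 209 in WT1, 186 in WT2, 206 in Vector and 170 in siNC, whereas NQO1 was at 133 in both wild-type groups, 28.6 in Vector and 40.4 in siNC, and GCLM was at 39.5 and 36.2 in the wild types, 6.93 in Vector and 7.92 in siNC. What sets the control groups of the 3 tables apart was not tested.

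**Figure D1:**
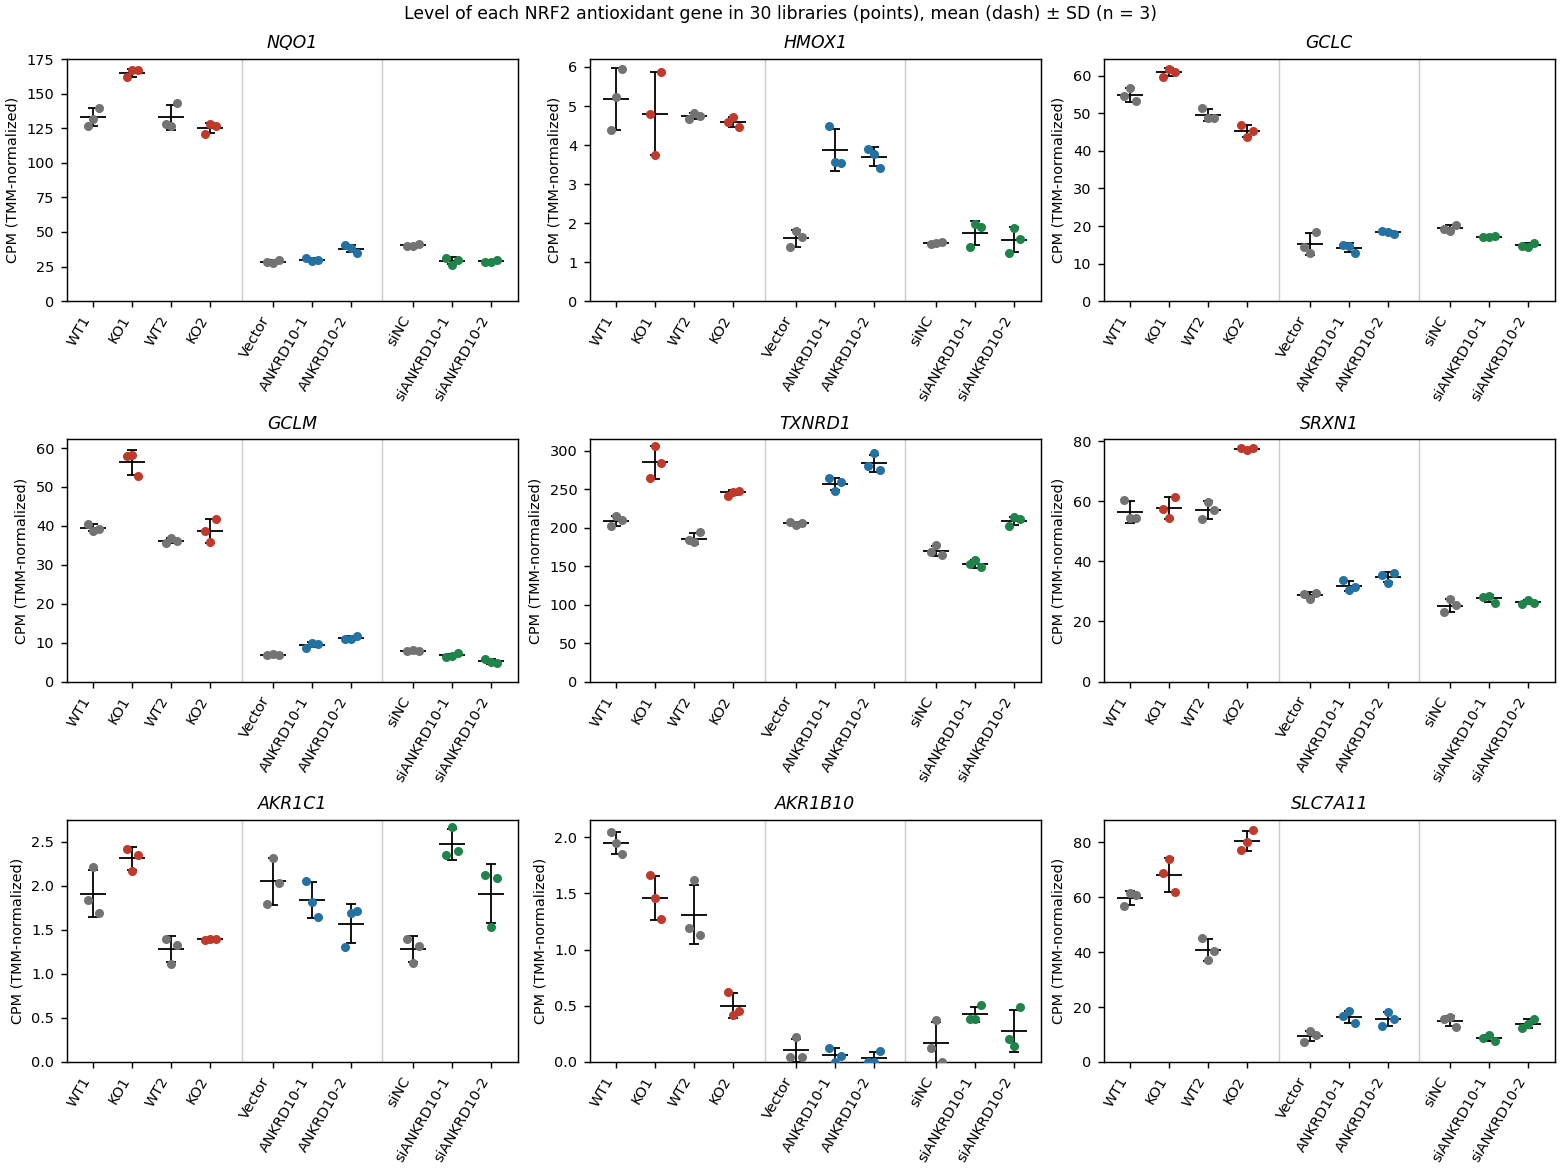
Level of each of the 9 genes (y axis, CPM, TMM-normalised within each table, starting at 0) in the 30 libraries, by group on the x axis. Points are libraries, dashes are means and bars are SD (n = 3); grey marks control groups, red knockouts, blue overexpression and green knockdown. NQO1, GCLC, GCLM, SRXN1 and SLC7A11 sit higher in the knockout table than in the others, while TXNRD1 lies in one range in all of them.

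Over the 6 comparisons of a manipulated group with its own control there were 54 pairs of a gene and a comparison, of which 51 passed the filter on low counts. AKR1B10 did not pass it in ANKRD10-1, ANKRD10-2 and siANKRD10-2, and in siANKRD10-1 it passed through the libraries of that group, where it was high. Of the pairs tested, 26 were called at an adjusted p under 0.05 (edgeR's quasi-likelihood test, Benjamini-Hochberg over all genes tested), 19 of them higher and 7 lower, and 3 reached a 2-fold difference. The comparisons of ANKRD10-1 and ANKRD10-2 share the Vector libraries, and those of siANKRD10-1 and siANKRD10-2 share the siNC libraries.

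In KO1, 4 of the 9 genes rose and 0 fell, where 17.9% of all genes tested were called higher and 18.2% lower. For the count of 0, edgeR found 0 members lower at an unadjusted p under 0.05 and DESeq2 called 0. In KO2, 3 of 9 rose and 2 fell, against 19.3% and 19.2% of all genes. In ANKRD10-1, 4 of the 8 genes tested rose, against 3.5% of all genes, and 0 fell, against 2.81%. In ANKRD10-2, 6 of 8 rose, against 10.7%, and 0 fell, against 9.25%. Both counts of 0 were also 0 at an unadjusted p under 0.05 in edgeR and 0 in DESeq2. In siANKRD10-1, 1 of 9 rose and 2 fell, against 5.08% and 5.52% of all genes. In siANKRD10-2, 1 of 8 rose and 3 fell, against 17.6% and 18.7%. The median log2 fold change of the genes tested was 0.19 in KO1, 0.10 in KO2, 0.24 in ANKRD10-1, 0.44 in ANKRD10-2, −0.15 in siANKRD10-1 and −0.01 in siANKRD10-2, and that of all genes lay between −0.02 and 0.00 in all 6. The medians moved with the libraries used: that of KO2 was 0.019 without WT2 replicate 2, 0.041 without KO2 replicate 3 and −0.088 against all 6 wild-type libraries, that of KO1 was 0.31 against all wild types, and that of siANKRD10-2 ran from −0.067 without siANKRD10-2 replicate 2 to 0.085 without siANKRD10-2 replicate 1. That of ANKRD10-1 was 0.156 without the low-count filter. The medians of KO2 and siANKRD10-2 thus changed sign between these settings. All calls in the overexpression groups were rises, while KO2 and both knockdowns held rises and falls.

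**Figure D2:**
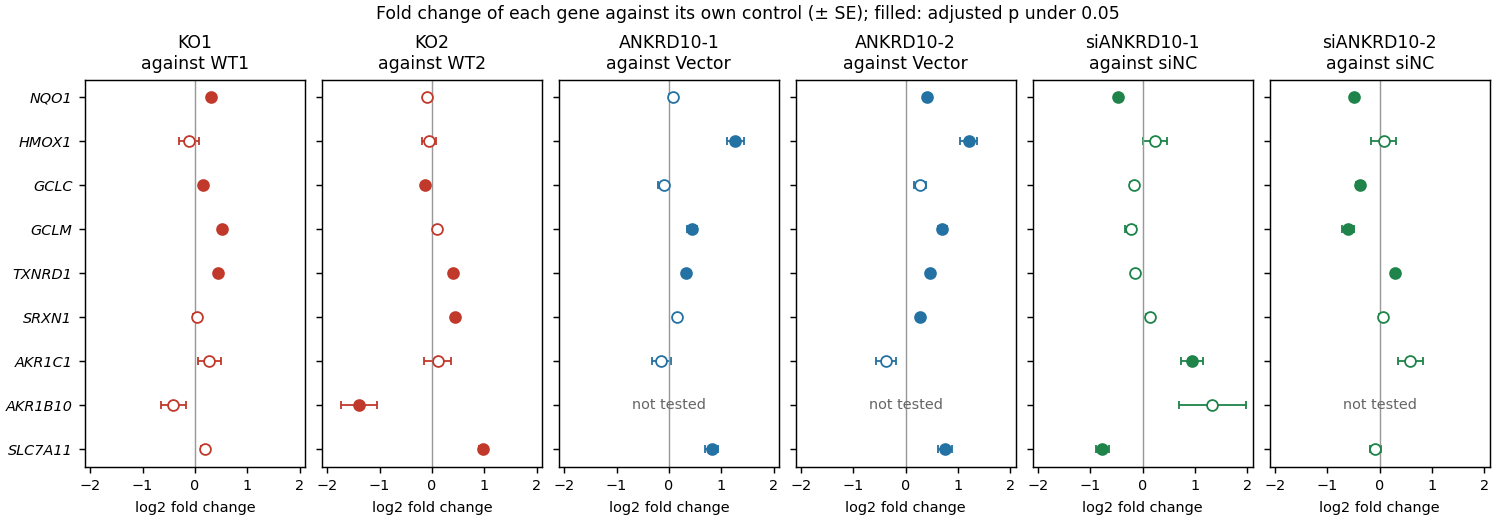
Log2 fold change (x axis) of each of the 9 genes (y axis) against its own control group in the 6 comparisons. Points are estimates of edgeR's quasi-likelihood fit, bars are SE, filled points have an adjusted p under 0.05 over all genes, and AKR1B10 is written as not tested where its counts were too low. All filled points lie right of 0 in the 2 overexpression panels, and filled points lie on both sides in KO2 and the knockdowns.

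SLC7A11, on chromosome 4 (138164097 to 138242349, minus strand, GRCh38), encodes the light chain of the cystine and glutamate exchanger, which imports the cystine from which glutathione is made. In the knockout experiment it measured 57.0, 61.7 and 60.8 CPM in WT1 and 68.8, 74.1 and 61.8 CPM in KO1. It measured 45.2, 37.1 and 40.3 CPM in WT2 and 77.1, 80.0 and 84.4 CPM in KO2. Every KO2 library was far above every WT2 library, whereas the lowest KO1 library was level with the highest WT1 library. SLC7A11 rose in KO2 by 0.97 on the log2 scale (SE 0.07, adjusted p = 3.5e-07), 1.96-fold. In KO1 the log2 fold change was 0.19 (SE 0.07, adjusted p = 0.0565). Without KO1 replicate 3 it was 0.26 (edgeR adjusted p = 0.0133), and over the 12 alternatives of that comparison adjusted p ran from 0.0133 to 0.181. The wild-type groups also differed, with SLC7A11 lower in WT2 than in WT1 by a log2 fold change of −0.55 (adjusted p = 0.00229). Against all 6 wild-type libraries the rise was 0.68 in KO2 (adjusted p = 0.000999, with a range over the 12 alternatives of 1.37e-43 to 0.000999) and 0.44 in KO1 (adjusted p = 0.0206).

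With ANKRD10 overexpressed, SLC7A11 measured 7.36, 11.1 and 9.7 CPM in Vector, 16.6, 18.5 and 14.2 CPM in ANKRD10-1 and 13.2, 18.3 and 15.8 CPM in ANKRD10-2. All 6 overexpressing libraries were above all Vector libraries. The rise was 0.82 (SE 0.12, adjusted p = 0.000408) with ANKRD10-1 and 0.75 (SE 0.14, adjusted p = 0.00196) with ANKRD10-2. In the knockdown experiment it measured 15.6, 16.4 and 12.6 CPM in siNC, 8.65, 9.98 and 7.54 CPM in siANKRD10-1 and 12.5, 13.9 and 15.8 CPM in siANKRD10-2. Only the siANKRD10-1 libraries stood below siNC, and the siANKRD10-2 libraries overlapped it. SLC7A11 fell by 0.77 (SE 0.12, adjusted p = 0.000294) in siANKRD10-1, and its log2 fold change in siANKRD10-2 was −0.08 (SE 0.10, adjusted p = 0.576).

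GCLM, on chromosome 1 (93885205 to 93909456, minus strand), encodes the modifier subunit of glutamate-cysteine ligase, the rate-limiting enzyme of glutathione synthesis. It measured 40.4, 38.8 and 39.2 CPM in WT1 and 58.0, 58.2 and 52.7 CPM in KO1. It measured 35.5, 36.9 and 36.1 CPM in WT2 and 38.6, 35.8 and 41.8 CPM in KO2. KO1 stood clear of its control, and KO2 overlapped its own. GCLM rose by 0.51 in KO1 (SE 0.06, adjusted p = 7.83e-05), and the value in KO2 was 0.10 (SE 0.06, adjusted p = 0.245). Under ANKRD10 overexpression the libraries read 6.9, 6.97 and 6.93 CPM in Vector, 8.74, 10.0 and 9.53 CPM in ANKRD10-1 and 11.0, 10.9 and 11.8 CPM in ANKRD10-2. The groups did not overlap, and GCLM rose by 0.45 with ANKRD10-1 (SE 0.09, adjusted p = 0.00656) and by 0.70 with ANKRD10-2 (SE 0.09, adjusted p = 9.39e-05). In the knockdowns it read 7.88, 8.07 and 7.81 CPM in siNC, 6.4, 6.58 and 7.23 CPM in siANKRD10-1 and 5.89, 5.11 and 4.67 CPM in siANKRD10-2. Both knockdown groups lay below siNC, and the test passed for siANKRD10-2, where GCLM fell by 0.60 (SE 0.12, adjusted p = 0.000277), and not for siANKRD10-1, at −0.23 (SE 0.11, adjusted p = 0.181).

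GCLC, on chromosome 6 (53497341 to 53616970, minus strand), encodes the catalytic subunit of the same enzyme. It read 54.5, 56.8 and 53.4 CPM in WT1, 59.8, 61.9 and 60.9 CPM in KO1, 51.4, 48.7 and 48.8 CPM in WT2 and 47.0, 43.8 and 45.2 CPM in KO2. KO1 lay just above and KO2 just below its control. The log2 fold changes of 0.15 in KO1 (SE 0.05, adjusted p = 0.0494) and −0.13 in KO2 (SE 0.05, adjusted p = 0.049) only just passed the test. The KO1 call was lost without any 1 of its 6 libraries (log2 fold changes of 0.13 to 0.17, over its 12 alternatives adjusted p 0.00461 to 0.152). The KO2 call was lost without KO2 replicate 2 or 3 or any WT2 library (−0.11 to −0.15, over its 12 alternatives adjusted p 0.00784 to 0.165). DESeq2 made neither call, and both were lost with RLE normalisation and without the low-count filter. In all, the KO1 call held in 2 and the KO2 call in 4 of the 12 alternatives.

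Under overexpression GCLC read 14.3, 12.7 and 18.5 CPM in Vector, 14.9, 14.8 and 12.9 CPM in ANKRD10-1 and 18.7, 18.4 and 18.0 CPM in ANKRD10-2. The third Vector library was as high as the ANKRD10-2 libraries. The values of −0.10 with ANKRD10-1 (SE 0.11, adjusted p = 0.678) and 0.27 with ANKRD10-2 (SE 0.11, adjusted p = 0.107) did not pass. Without Vector replicate 3 the latter was 0.45 (edgeR adjusted p = 0.00297, range over the 12 alternatives 0.00297 to 0.369). In the knockdowns GCLC read 19.3, 18.6 and 20.2 CPM in siNC, 17.1, 17.0 and 17.4 CPM in siANKRD10-1 and 14.7, 14.4 and 15.4 CPM in siANKRD10-2. The 3 groups stood in this order without overlap. GCLC fell by 0.38 in siANKRD10-2 (SE 0.08, adjusted p = 0.000397), and the value in siANKRD10-1 was −0.17 (SE 0.08, adjusted p = 0.154).

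TXNRD1, on chromosome 12 (104215779 to 104350305, plus strand), encodes cytosolic thioredoxin reductase, which keeps thioredoxin reduced at the expense of NADPH. Of the 9 genes it was called most often, in 5 of 6 comparisons, each time higher. It read 203, 215 and 210 CPM in WT1, 265, 307 and 284 CPM in KO1, 184, 181 and 195 CPM in WT2 and 242, 247 and 248 CPM in KO2. Neither knockout overlapped its control, and TXNRD1 rose by 0.44 in KO1 (SE 0.06, adjusted p = 0.000152) and by 0.39 in KO2 (SE 0.04, adjusted p = 4.82e-06). With ANKRD10 overexpressed it read 207, 204 and 206 CPM in Vector, 265, 248 and 259 CPM in ANKRD10-1 and 280, 297 and 275 CPM in ANKRD10-2. The Vector libraries were close to each other and below all others, and the rises were 0.32 (SE 0.04, adjusted p = 0.00012) and 0.47 (SE 0.05, adjusted p = 1.05e-05). In the knockdowns it read 169, 177 and 164 CPM in siNC, 153, 158 and 149 CPM in siANKRD10-1 and 203, 214 and 211 CPM in siANKRD10-2. The siRNAs stood on opposite sides of siNC: TXNRD1 rose by 0.30 in siANKRD10-2 (SE 0.05, adjusted p = 5.72e-05), and its value in siANKRD10-1 was −0.15 (SE 0.06, adjusted p = 0.0897).

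SRXN1, on chromosome 20 (646615 to 653370, minus strand), encodes sulfiredoxin, which repairs overoxidised peroxiredoxins. It read 60.6, 54.6 and 54.3 CPM in WT1, 57.4, 54.3 and 61.6 CPM in KO1, 54.1, 59.9 and 57.1 CPM in WT2 and 77.8, 77.2 and 77.6 CPM in KO2. KO2 alone stood apart: SRXN1 rose there by 0.44 (SE 0.05, adjusted p = 1.82e-05), and the value in KO1 was 0.03 (SE 0.07, adjusted p = 0.762). In the overexpression experiment the libraries read 29.1, 27.6 and 29.4 CPM in Vector, 33.7, 30.5 and 31.5 CPM in ANKRD10-1 and 35.5, 32.8 and 36.1 CPM in ANKRD10-2. Both groups lay above Vector, with a rise of 0.28 in ANKRD10-2 (SE 0.06, adjusted p = 0.00745) and a value of 0.15 in ANKRD10-1 (SE 0.06, adjusted p = 0.16). In siNC it read 23.0, 27.4 and 25.5 CPM, within the reach of both knockdown groups, whose log2 fold changes were 0.13 (SE 0.08, adjusted p = 0.304) in siANKRD10-1 and 0.07 (SE 0.07, adjusted p = 0.507) in siANKRD10-2.

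NQO1, on chromosome 16 (69706996 to 69726951, minus strand), encodes the quinone reductase often read as the reporter of NRF2 activity. It read 127, 132 and 140 CPM in WT1 and 162, 167 and 167 CPM in KO1. It read 128, 127 and 143 CPM in WT2 and 121, 128 and 127 CPM in KO2. KO1 lay above both wild-type groups and KO2 overlapped its own. NQO1 rose by 0.31 in KO1 (SE 0.05, adjusted p = 0.000618), and the value in KO2 was −0.09 (SE 0.05, adjusted p = 0.202). In the overexpression experiment it read 28.5, 27.8 and 29.5 CPM in Vector, 31.4, 29.1 and 29.6 CPM in ANKRD10-1 and 40.3, 38.6 and 35.0 CPM in ANKRD10-2. The ANKRD10-2 libraries stood apart from the rest. The rise there was 0.41 (SE 0.07, adjusted p = 0.000846), and the value in ANKRD10-1 was 0.07 (SE 0.06, adjusted p = 0.565).

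In the knockdown experiment NQO1 read 40.2, 39.6 and 41.4 CPM in siNC, 31.1, 26.4 and 30.1 CPM in siANKRD10-1 and 28.6, 28.2 and 29.8 CPM in siANKRD10-2. All 6 knockdown libraries were below all siNC libraries. NQO1 fell by 0.47 in siANKRD10-1 (SE 0.07, adjusted p = 0.000304) and by 0.48 in siANKRD10-2 (SE 0.06, adjusted p = 9.02e-07). Of the 9 genes, NQO1 was the single one that fell in both knockdowns at this threshold.

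HMOX1, on chromosome 22 (35380361 to 35394214, plus strand), encodes haem oxygenase 1, which opens the haem ring and is induced by haem, heat and metals as well as through NRF2. In the overexpression experiment it read 1.38, 1.79 and 1.65 CPM in Vector, 4.49, 3.57 and 3.54 CPM in ANKRD10-1 and 3.9, 3.76 and 3.42 CPM in ANKRD10-2. Every overexpressing library stood clear of every Vector library. HMOX1 rose 2.41-fold with ANKRD10-1 (log2 1.27, SE 0.17, adjusted p = 8.77e-05) and 2.3-fold with ANKRD10-2 (log2 1.20, SE 0.16, adjusted p = 0.000174), on raw counts of 60 to 80 per library in Vector. Low counts of the overexpression and knockdown tables were mostly even, and if both mates of a read pair were counted there, which was not tested, the number of fragments behind such raw counts is smaller. Elsewhere no difference was called. It read 4.38, 5.23 and 5.95 CPM in WT1, 4.79, 3.74 and 5.86 CPM in KO1, 4.67, 4.81 and 4.75 CPM in WT2 and 4.59, 4.72 and 4.46 CPM in KO2. Each knockout overlapped its control, at −0.11 (SE 0.20, adjusted p = 0.695) and −0.05 (SE 0.14, adjusted p = 0.804). In the knockdowns it read 1.46, 1.49 and 1.51 CPM in siNC, 1.39, 1.97 and 1.89 CPM in siANKRD10-1 and 1.23, 1.88 and 1.6 CPM in siANKRD10-2. These groups overlapped as well, at 0.23 (SE 0.22, adjusted p = 0.563) and 0.08 (SE 0.24, adjusted p = 0.838).

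AKR1C1, on chromosome 10 (4963253 to 4983283, plus strand), encodes an aldo-keto reductase that inactivates progesterone and reduces reactive carbonyls. It has near-identical relatives: 28.3% of the 50-base words of its GENCODE transcripts also occur in AKR1C2 and 1.53% in AKR1C3. How far such shared words affected its counts was not tested. It read 1.4, 1.12 and 1.32 CPM in siNC, 2.35, 2.67 and 2.39 CPM in siANKRD10-1 and 2.12, 1.53 and 2.09 CPM in siANKRD10-2. Both knockdown groups lay above siNC, opposite in direction to NQO1. AKR1C1 rose by 0.95 in siANKRD10-1 (SE 0.21, adjusted p = 0.00632), on counts of 36 to 46 per library in siNC. In siANKRD10-2 the value was 0.58 (SE 0.24, adjusted p = 0.0585), and 0.72 without siANKRD10-2 replicate 2 (adjusted p = 0.0354, range over the 12 alternatives 0.0354 to 0.181). In the other experiments AKR1C1 read 1.84, 2.21 and 1.69 CPM in WT1, 2.42, 2.17 and 2.35 CPM in KO1, 1.4, 1.11 and 1.33 CPM in WT2, 1.38, 1.4 and 1.39 CPM in KO2, 1.79, 2.32 and 2.03 CPM in Vector, 2.05, 1.81 and 1.65 CPM in ANKRD10-1 and 1.31, 1.69 and 1.71 CPM in ANKRD10-2. Most of these groups overlapped their controls, and none of these 4 comparisons was called (log2 fold changes of 0.27, 0.11, −0.15 and −0.38, adjusted p = 0.37, 0.775, 0.709 and 0.205). The related AKR1C2 did not follow AKR1C1 in the knockouts: it fell by 0.90 in KO1 (SE 0.16, adjusted p = 0.00106) and rose by 0.91 in KO2 (SE 0.20, adjusted p = 0.00348), and it was lower in WT2 than in WT1 by a log2 fold change of −1.50. Against all 6 wild-type libraries AKR1C2 was at −0.33 in KO1 (adjusted p = 0.518) and at −0.03 in KO2. With ANKRD10-2, AKR1C2 and AKR1C3 fell by 0.58 and 0.71 (edgeR adjusted p = 0.0356 and 0.00105). The AKR1C2 call there was lost without any ANKRD10-2 library or Vector replicate 1 or 2. In siANKRD10-2 AKR1C2 rose by 0.67 (edgeR adjusted p = 0.000434). In these comparisons AKR1C1 lay in the same direction and was not called.

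AKR1B10, on chromosome 7 (134527592 to 134541408, plus strand), encodes a reductase of retinal and of lipid aldehydes. It shares 9.69% of its 50-base words with AKR1B15 and 0 with AKR1B1. It read 2.05, 1.95 and 1.85 CPM in WT1, 1.66, 1.46 and 1.27 CPM in KO1, 1.19, 1.62 and 1.13 CPM in WT2 and 0.625, 0.419 and 0.454 CPM in KO2. Both knockouts lay below their controls without overlap. AKR1B10 fell in KO2 by 1.39 on the log2 scale (SE 0.34, adjusted p = 0.00581), on counts of 21 to 35 per library in KO2 and 80 to 90 in WT2, and the value in KO1 was −0.41 (SE 0.24, adjusted p = 0.203). In the other experiments it was near the limit of detection, at 0 to 8 counts per library in the overexpression experiment, 0 to 12 in siNC, 12 to 16 in siANKRD10-1 and 4 to 16 in siANKRD10-2. The value in siANKRD10-1, 1.33 (SE 0.64, adjusted p = 0.2), was not distinguishable from 0 at this depth.

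The knockouts differed from each other in 5 of the 9 genes. The test of the difference itself, KO1 against WT1 minus KO2 against WT2 in 1 fit, called 3 of 9 genes higher and 2 lower, where it called 11.2% of all genes higher and 12.1% lower. The effect was greater in KO1 for GCLM by 0.41 (SE 0.09, adjusted p = 0.00222), for NQO1 by 0.39 (SE 0.07, adjusted p = 0.000769) and for GCLC by 0.28 (SE 0.07, adjusted p = 0.00649). It was greater in KO2 for SLC7A11, at −0.79 (SE 0.10, adjusted p = 3.78e-05), and for SRXN1, at −0.41 (SE 0.08, adjusted p = 0.00166). TXNRD1 rose in both, and its difference of 0.05 (SE 0.07, adjusted p = 0.711) did not pass. AKR1B10 was at 0.98 (SE 0.36, adjusted p = 0.0664) and at 1.17 without KO2 replicate 1 (adjusted p = 0.0403, range over the 16 alternatives 0.0403 to 0.165).

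**Figure D3:**
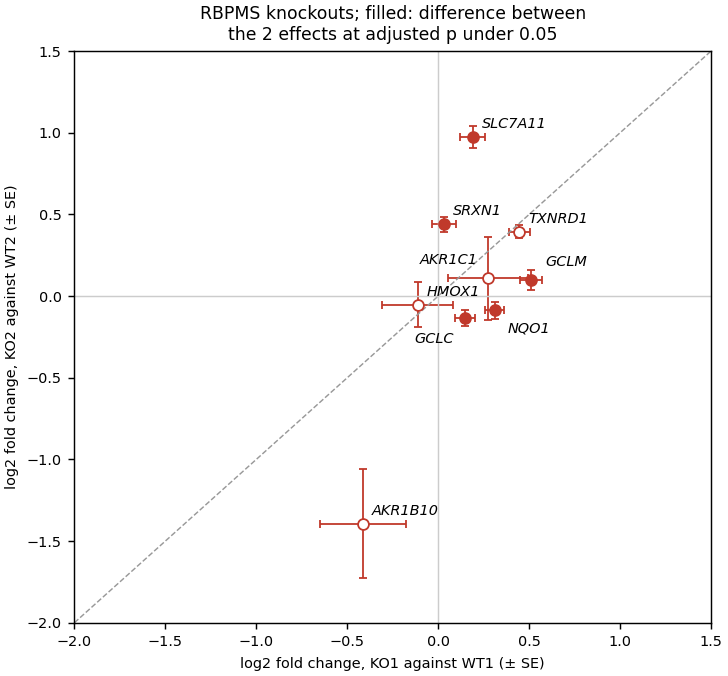
Log2 fold change of each of the 9 genes in KO1 against WT1 (x axis) and in KO2 against WT2 (y axis), with SE bars and a dashed line of equal effects. Filled points are those whose difference between the 2 effects had an adjusted p under 0.05: SLC7A11 and SRXN1 lie above the line, GCLM, NQO1 and GCLC below it, and TXNRD1 beside it at 0.44 and 0.39.

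The wild-type groups were compared as well. WT2 against WT1 gave 1 gene lower, SLC7A11, and 0 higher, against 0.654% and 0.578% of all genes. At an unadjusted p under 0.05, edgeR found 0 higher and 6 lower. DESeq2 called 0 of the 9 higher and 2 lower, where it called 323 of all genes higher and 367 lower. The median over the 9 genes was −0.14, and 6 of the 9 did not overlap between the wild-type groups. The shares of all genes at the unadjusted threshold and without overlap are not given here, so these counts of 6 have no background. DESeq2 also called TXNRD1 lower, at −0.17 (adjusted p = 0.00473, range over the 11 alternatives 0.00473 to 0.33), which was −0.17 (SE 0.04, adjusted p = 0.0974) in edgeR.

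Set directly against ANKRD10-1, ANKRD10-2 had higher GCLC, by 0.37 (SE 0.08, adjusted p = 0.00623), and higher NQO1, by 0.34 (SE 0.07, adjusted p = 0.00337), 2 of the 8 genes tested against 4.15% of all genes. Lower genes numbered 0, also at an unadjusted p under 0.05 in edgeR and in DESeq2, against 3.1% of all genes. HMOX1 and SLC7A11 overlapped between the isoforms, at −0.07 (SE 0.14, adjusted p = 0.841) and −0.07 (SE 0.11, adjusted p = 0.782). The knockdowns were further apart. In siANKRD10-2 against siANKRD10-1, 2 of 9 genes were higher and 2 lower, close to the 18.2% and 18.8% of all genes. SLC7A11 was higher by 0.69 (SE 0.11, adjusted p = 3.32e-05) and TXNRD1 by 0.46 (SE 0.05, adjusted p = 3.93e-07). GCLM was lower, at −0.37 (SE 0.13, adjusted p = 0.0279), and so was GCLC, at −0.20 (SE 0.08, adjusted p = 0.048). The GCLM call was lost without siANKRD10-1 replicate 3 (−0.32), siANKRD10-2 replicate 2 (−0.36) or siANKRD10-2 replicate 3 (−0.29), and the GCLC call without any 1 of the 6 libraries (−0.19 to −0.23). Without any of the first 3 libraries 2 of the 9 genes were called instead of 4.

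Since each knockout group was a clone, the genes around each member were read as well. Within 5 Mb of GCLC, the median log2 fold change over tested genes was −0.14 in KO1 (n = 30) and −0.28 in KO2 (n = 31), and GCLC itself was at 0.15 and −0.13. Around SRXN1 the medians were −0.27 in KO1 (n = 59) and 0.14 in KO2 (n = 63), against 0.03 and 0.44 for SRXN1. Around SLC7A11 they were 0.01 (n = 26) and −0.32 (n = 27), against 0.19 and 0.97. Around TXNRD1, NQO1, GCLM, AKR1C1, AKR1B10 and HMOX1 they lay between −0.06 and 0.10. For GCLC and SRXN1 the neighbours differed between the knockouts in the same direction as the gene, and for SLC7A11 in the opposite one. The part of chromosome copy number was not tested.

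The regulators of NRF2 were read in the same fits. Some transcripts of the 3 small MAF partners passed the test in each comparison but siANKRD10-2. The rises were MAFK by 0.34 and MAFG by 0.30 in KO1 (adjusted p = 0.0127 and 0.000699), MAFG by 0.42 in KO2 (adjusted p = 2.57e-05), MAFF by 0.25 in ANKRD10-1 (adjusted p = 0.00286), and MAFK by 0.47, MAFF by 0.37 and MAFG by 0.34 in ANKRD10-2 (adjusted p = 0.000627, 0.000315 and 0.00142). MAFG fell by 0.21 in siANKRD10-1 (adjusted p = 0.0396), a call lost without the low-count filter (−0.22) and without siANKRD10-1 replicate 1 (−0.21) or 3 (−0.22) or siNC replicate 1 (−0.20) or 2 (−0.20). The MAFK call in KO1 was lost without WT1 replicate 2 (0.27). In KO2, MAFF at 0.41 and MAFK at 0.33 lost their calls without KO2 replicate 3 (0.28 and 0.28) or WT2 replicate 3 (0.40 and 0.23), MAFF also without WT2 replicate 1 (0.35) and MAFK without KO2 replicate 1 (0.32). NFE2L2 itself was called in 2 of the 6 comparisons. Its means were 109 against 117 CPM in KO1, 120 against 115 in KO2, 85.4 against 76.9 in ANKRD10-1 and 86.9 against 93.5 in siANKRD10-2, none of them called. It rose by 0.21 in ANKRD10-2 (adjusted p = 0.0154, lost without ANKRD10-2 replicate 3 at 0.19 and Vector replicates 1 and 2 at 0.20 and 0.18) and fell by 0.27 in siANKRD10-1 (adjusted p = 0.00658, lost without siANKRD10-1 replicate 1 at −0.25). Without Vector replicate 3 it was called in ANKRD10-1, at 0.20.

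KEAP1 fell by 0.41 in KO1 (SE 0.05, adjusted p = 0.000132) and by 0.45 in siANKRD10-2 (SE 0.07, adjusted p = 2.87e-05). In KO2 it was at 0.13 (adjusted p = 0.0854) and passed in 4 of the 12 alternatives, with DESeq2 (0.14, adjusted p = 0.0467), with the replicate block (0.14, adjusted p = 0.035), against all 6 wild-type libraries (0.16, adjusted p = 0.0205) and without WT2 replicate 2 (0.20, adjusted p = 0.0114). BACH1 fell by 0.24 in KO1 (adjusted p = 0.00289) and by 0.25 in siANKRD10-2 (adjusted p = 0.00285) and rose by 0.21 in KO2 (adjusted p = 0.00938), a call lost without the low-count filter. SQSTM1, whose protein p62 binds KEAP1 and which is itself an NRF2 target, rose by 0.19 in KO1, 0.21 in ANKRD10-1, 0.30 in ANKRD10-2 and 0.26 in siANKRD10-2 (adjusted p = 0.00592, 0.00966, 0.000672 and 0.000256) and fell by 0.26 in siANKRD10-1 (adjusted p = 0.00408). In all, of the 10 regulators 4 rose and 2 fell in KO1, 5 and 0 in KO2, 2 and 0 in ANKRD10-1, 6 and 0 in ANKRD10-2, 0 and 3 in siANKRD10-1 and 2 and 3 in siANKRD10-2. Over all genes, the shares called higher and lower were 17.9% and 18.2% in KO1, 19.3% and 19.2% in KO2, 3.5% and 2.81% in ANKRD10-1, 10.7% and 9.25% in ANKRD10-2, 5.08% and 5.52% in siANKRD10-1 and 17.6% and 18.7% in siANKRD10-2. The 3 counts of 0 lower were 0, 1 and 0 at an unadjusted p under 0.05 in edgeR, in that order, and 0 each in DESeq2, and the count of 0 higher was 0 by both.

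Of 36 other textbook NRF2 targets, 35 were tested in the knockouts and 32 in the other experiments. In KO1 10 rose and 9 fell (17.9% and 18.2% of all genes), with CYP4F11, a fatty acid hydroxylase, up by 1.38 (SE 0.23, adjusted p = 0.000846) and malic enzyme ME1 up by 0.76 (SE 0.08, adjusted p = 2.52e-05). AKR1C2, GPX2 and BLVRB, a biliverdin reductase, were down in KO1 by 0.90, 0.68 and 0.48 (edgeR adjusted p = 0.00106, 0.0182 and 0.00165). The GPX2 call was lost without KO1 replicate 2 or WT1 replicate 3. GPX2 was also down in KO2, by 1.11 (edgeR adjusted p = 0.00793). In KO2 11 rose and 10 fell (19.3% and 19.2% of all genes), with peroxiredoxin PRDX1 up by 0.42 (adjusted p = 6.29e-06) and the iron-binding pirin gene PIR and glutathione transferase GSTM3 down by 1.30 and 1.23 (adjusted p = 1.46e-08 and 4.83e-05). With ANKRD10-1 5 rose and 1 fell (3.5% and 2.81% of all genes), and with ANKRD10-2 12 rose and 4 fell (10.7% and 9.25%). The ferritin light chain FTL rose in both, by 0.32 and 0.58 (adjusted p = 0.00576 and 5.72e-05), and the transporter ABCC3 fell in both, by 0.34 and 0.53 (adjusted p = 0.000194 and 4.3e-06). In siANKRD10-1 0 rose and 3 fell (5.08% and 5.52% of all genes), with the ferritin heavy chain FTH1 down by 0.33 (adjusted p = 0.00156). At an unadjusted p under 0.05, edgeR gave 3 higher and 4 lower there, and DESeq2 called 0 and 3, with no shares of all genes by these criteria given here. The other falls there were not stable: GSR (−0.24) lost its call without any siANKRD10-1 library or siNC replicate 2 or 3 (−0.19 to −0.27), and PIR (−0.21) without siANKRD10-1 replicate 1 or 2, any siNC library (−0.17 to −0.25) or the low-count filter. In siANKRD10-2 3 rose and 11 fell (17.6% and 18.7% of all genes), with PRDX1 down by 0.96 (SE 0.06, adjusted p = 5.83e-12), the NADPH-forming isocitrate dehydrogenase IDH1 down by 0.84 (SE 0.05, adjusted p = 6.54e-12) and glutathione reductase GSR down by 0.51 (adjusted p = 5.51e-06). The list medians were 0.08, 0.02, 0.09, 0.15, 0.01 and −0.12 in the order of these comparisons.

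Antioxidant enzymes not chosen as NRF2 targets, 20 genes all tested, gave 6 higher and 2 lower in KO1, 9 and 3 in KO2, 0 and 0 in ANKRD10-1, 6 and 1 in ANKRD10-2, 2 and 0 in siANKRD10-1 and 4 and 4 in siANKRD10-2. Of all genes, 17.9% and 18.2%, 19.3% and 19.2%, 3.5% and 2.81%, 10.7% and 9.25%, 5.08% and 5.52%, and 17.6% and 18.7% were called higher and lower in these comparisons, so the counts in siANKRD10-2 were near the background. Glutathione peroxidase GPX1 rose in both knockouts, by 0.56 (adjusted p = 0.000161) and 0.77 (adjusted p = 1.72e-06). Its relatives GPX4 and GPX8 fell in KO1, by 0.47 and 0.24 (edgeR adjusted p = 8.24e-05 and 0.00892). Mitochondrial superoxide dismutase SOD2 rose by 0.67 in KO2 (adjusted p = 2.2e-08) and fell by 0.53 in ANKRD10-2 (adjusted p = 1.76e-05). For ANKRD10-1, 4 of the 20 were higher and 0 lower at an unadjusted p under 0.05 in edgeR, and DESeq2 called 2 higher and 0 lower. The shares of all genes by these criteria are not given here, so these counts have no background. For the count of 0 lower in siANKRD10-1 both gave 0.

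SLC7A11 is also a target of ATF4, the transcription factor of the amino acid and unfolded protein stress response, so 9 genes of that response were read beside it. With ANKRD10-1 and with ANKRD10-2, 7 of the 9 rose and 0 fell, where 3.5% and 10.7% of all genes were called higher and 2.81% and 9.25% lower. For these counts of 0, edgeR at an unadjusted p under 0.05 and DESeq2 also gave 0. DDIT3, which encodes the stress factor CHOP, went from 58.1 CPM in Vector to 151 and 146 CPM, a rise of 1.38 (SE 0.06, adjusted p = 1.63e-11) and 1.32 (SE 0.06, adjusted p = 5e-09). SESN2 rose by 0.85 and 0.76 (adjusted p = 1.43e-06 and 0.000101), and ATF4 by 0.33 and 0.27 (adjusted p = 9.59e-05 and 0.00367). In KO2, where SLC7A11 rose 1.96-fold, 3 of the 9 rose and 2 fell, beside 19.3% and 19.2% of all genes: SLC3A2, the heavy chain that carries SLC7A11 to the membrane, rose by 0.87 (SE 0.03, adjusted p = 2.06e-09), and the serine synthesis genes PSAT1 and PHGDH fell by 0.87 and 0.56 (adjusted p = 7.63e-08 and 1.7e-07). In KO1 3 rose and 1 fell (17.9% and 18.2% of all genes), with SLC3A2 up by 0.64 (adjusted p = 1.35e-05). In siANKRD10-1, where SLC7A11 fell, 0 of the 9 were called in either direction (5.08% and 5.52% of all genes), with 0 higher and 2 lower at an unadjusted p under 0.05 in edgeR and 0 in DESeq2. The latter counts have no background here. In siANKRD10-2 3 rose and 2 fell (17.6% and 18.7% of all genes), SLC3A2 among the latter, by 0.49 (adjusted p = 5.47e-08).

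**Figure D4:**
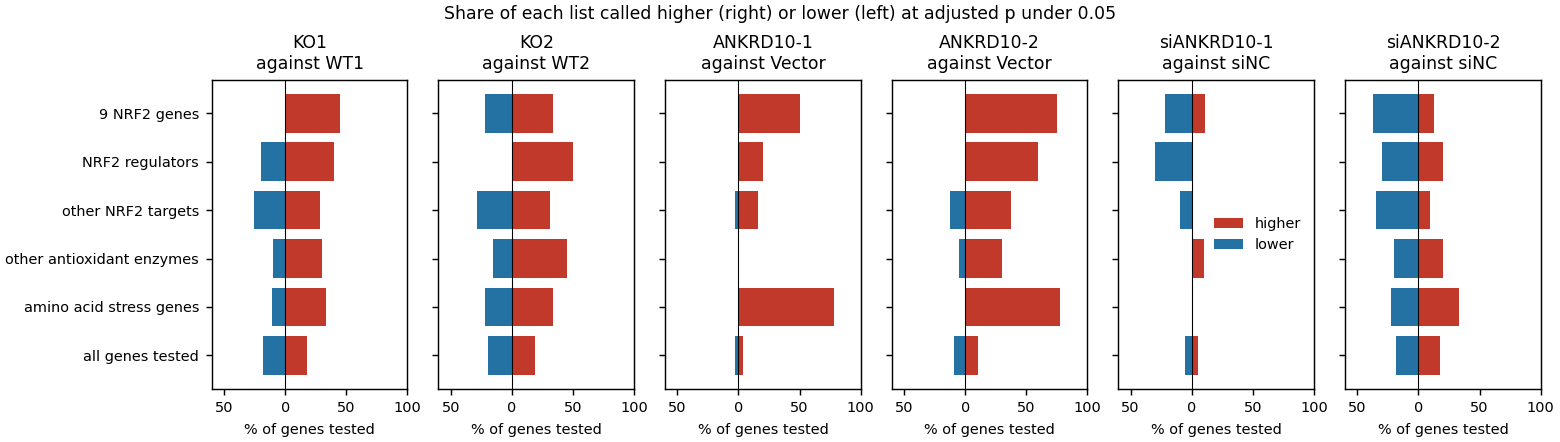
Share of the genes tested (x axis, %) that was called higher (red, to the right of 0) or lower (blue, to the left of 0) at an adjusted p under 0.05, for the 9 genes, 4 other lists and all genes tested (y axis) in the 6 comparisons. With ANKRD10-1 and ANKRD10-2 the bars of the 9 genes (4 of 8 and 6 of 8) and of the amino acid stress genes (7 of 9 in both) reach well past that of all genes (3.5% and 10.7% higher).

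Likeness of pattern was measured as the Euclidean distance between the 6 log2 fold changes of 2 genes, over 13227 genes tested in all 6 comparisons, and is a description without a test. Nearest to NQO1 were FEM1C at a distance of 0.25, PBK at 0.28 and SGTB at 0.29. The nearest of the other members was GCLC at 0.42. Nearest to HMOX1 were ZFAND2A at 0.59, DNAJB1 at 0.62 and DDIT3 at 0.64. DNAJB1, a co-chaperone of the heat shock response, and ZFAND2A had log2 fold changes of 1.33 and 1.12 with ANKRD10-1 and of 1.59 and 1.14 with ANKRD10-2. Both genes were picked by these values, so their nearness to HMOX1 follows from the choice. A shared cause was not tested. The nearest member to HMOX1 was GCLM, at 1.43.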

How the data were processed

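RNA-seq libraries (stranded poly(A) mRNA kit) of 5637 cells were analysed from 3 deposited tables of raw counts per gene, with gene lengths beside them in the overexpression and knockdown tables. The authors trimmed reads with Cutadapt and Trimmomatic 0.36 and aligned them with HISAT2. The paper names StringTie for expression, and the submitters' processing notes name featureCounts of Subread 1.5.1 and GRCh38. The annotation release is not given in the sources used here. Symbols were matched in 2 tables and Ensembl identifiers in the knockout table, and 0 columns of samples were left unused.

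Counts were fitted with edgeR 4.0.16 in R 4.3.3 (quasi-likelihood test, filterByExpr with a minimum count of 10 and a minimum total of 15, TMM, prior count 0.125), using only the libraries compared, and p-values were adjusted by Benjamini-Hochberg across every gene tested (threshold 0.05). SE is the log2 fold change over the root of F. CPM were TMM-normalised over each table, and RPKM used the deposited gene lengths, also for the knockout table. An exact permutation test of 3 against 3 libraries reaches p = 0.1 at best. The fits were tested on simulated counts with a single set spread for all genes, which was not estimated from these libraries. Of log2 changes of 0.5, 71% were recovered in KO1 against WT1, 48% in ANKRD10-2 against Vector and 55% in siANKRD10-2 against siNC. Of log2 changes of 1, 99%, 99% and 100% were recovered. In that setting a change of 0.5 or less can thus be present and not called. The rates need not hold for these libraries, where GCLC was called in KO1 at 0.15. Alternatives were RLE normalisation, no filter, DESeq2 1.42.0, all libraries of a table, all 6 wild-type libraries as control, a replicate block and leaving out each library. Among counts of 1 to 20, 46.3 to 47.9% were even in the knockout table, 67.4 to 68.4% in the overexpression table and 70.1 to 75.9% in the knockdown table, so for the latter 2 a fit on halved counts (rounded up) was added after seeing the data. Whether both mates of a pair were counted there was not tested; if so, the raw counts of these tables overstate the number of fragments. No 2 libraries of a group agreed within sampling noise (chi-square per gene 3.92 to 18.1).

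All 9 members, NFE2L2, KEAP1, BACH1, SQSTM1, RBPMS and ANKRD10 were named by rule. From each other list, up to 3 rises and 3 falls with the largest change were eligible per comparison, at an adjusted p under 0.05 and a mean of at least 50 normalised counts, and the amino acid stress genes and the AKR1C1 relatives named were chosen after their values were seen. The members and the lists were chosen with earlier results of these data known. Promoter windows come from RefSeq (GRCh38.p14).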

Additional observations from a re-analysis of the deposited data

Results flagged for a closer look

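The effects of the knockouts on 5 of the 9 genes differed from each other in the test of the difference itself (edgeR's quasi-likelihood test, KO1 effect minus KO2 effect on the log2 scale, 3 libraries per group). NQO1 differed by 0.39 (adjusted p = 0.000769), GCLM by 0.41 (adjusted p = 0.00222) and GCLC by 0.28 (adjusted p = 0.00649), all greater in KO1. SLC7A11 differed by −0.79 (adjusted p = 3.78e-05) and SRXN1 by −0.41 (adjusted p = 0.00166), both greater in KO2. The 5 calls held in all 16 alternatives of that comparison. None of these pooled the wild-type groups, so they do not address a difference between the controls. Against all 6 wild-type libraries SLC7A11 was at 0.44 in KO1 and 0.68 in KO2, and the difference was not tested there. SLC7A11 also differed between WT1 and WT2, and clone and knockout cannot be told apart.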

How the results depend on the processing

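Of the calls of the 9 genes against a control group, all but the 2 of GCLC in the knockouts held in every alternative run for them. With the replicate block, which used numbers that did not pair the libraries (correlations of deviations −0.03 to 0.08), the members called stayed within 1.5 times in all 10 comparisons. The block added GCLC in ANKRD10-2 (adjusted p = 0.0335) and TXNRD1 in siANKRD10-1 (adjusted p = 0.039), and removed GCLC in KO1 (adjusted p = 0.0697) and in siANKRD10-2 against siANKRD10-1 (adjusted p = 0.074). Against all 6 wild-type libraries, AKR1C1 and AKR1C2 in KO2 turned to −0.20 and −0.026. The fit on halved counts changed 1 member call, AKR1C1 in siANKRD10-2 (adjusted p = 0.0473). In WT2 against WT1, DESeq2 called 2 members instead of 1 and 690 genes instead of 226, and without the filter 88 genes were called and NQO1 was at 0.003. Leaving out 1 library at a time gave 700 to 1549 genes in ANKRD10-1 (1291 with all, lowest without ANKRD10-1 replicate 1), 2617 to 3533 in ANKRD10-2 (4017, lowest without Vector replicate 1 or 2), 949 to 2430 in siANKRD10-1 (1991, lowest without siNC replicate 2), 71 to 133 in WT2 against WT1 (lowest without WT2 replicate 2) and 694 to 1396 in ANKRD10-2 against ANKRD10-1 (1455, lowest without ANKRD10-1 replicate 1), and 2 to 3 members instead of 4 in siANKRD10-2 against siANKRD10-1. It also turned the sign of values that were never called: HMOX1 (−0.28 to 0.035) and SRXN1 (−0.016 to 0.087) in KO1, SQSTM1 (−0.053 to 0.015) in KO2, GCLC (−0.21 to 0.073) and KEAP1 (−0.032 to 0.20) in ANKRD10-1, RBPMS (−0.044 to 0.17) in ANKRD10-2, BACH1 (−0.12 to 0.021), KEAP1 (−0.075 to 0.01) and RBPMS (−0.18 to 0.022) in siANKRD10-1, HMOX1 (−0.067 to 0.22) and RBPMS (−0.04 to 0.16) in siANKRD10-2, NQO1 (−0.061 to 0.036) and SRXN1 (−0.022 to 0.068) in WT2 against WT1, HMOX1 (−0.13 to 0.055) and SLC7A11 (−0.18 to 0.045) in ANKRD10-2 against ANKRD10-1, NQO1 (−0.082 to 0.032) in siANKRD10-2 against siANKRD10-1, and HMOX1 (−0.23 to 0.085) and TXNRD1 (−0.007 to 0.10) in the difference between the knockouts. Of the medians over the 9 genes, 32 of 107 values under an alternative moved by more than the spread between replicates. The causes were not tested. At this depth AKR1B10 was too low to test in 3 comparisons.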
